A study of Mus musculus with 6 samples.

Results

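Long intergenic noncoding RNAs (lincRNAs) expressed in monocytes from the inflamed central nervous system (CNS) were examined by RNA-seq. A lincRNA was counted as expressed when it had at least 10 expected counts in all 3 libraries of at least one group, so the members were selected on the same counts that are compared below. Of 5467 genes annotated as lincRNA among 54232 genes in the files, 975 had any count and 104 were expressed by this rule. The threshold was met in both groups by 82 of them, in WT libraries alone by 9 and in Ifnar1-/- libraries alone by 13. The 22 that met it in one group passed through the counts of that group alone, so their values are given as a description with no test.

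The monocytes came from mixed bone marrow chimeras. GFP+ recipients were irradiated and received equal parts of WT (CD45.1) and Ifnar1-/- (CD45.2) bone marrow, were immunized for experimental autoimmune encephalomyelitis (EAE) 6 to 7 weeks later, and were given recombinant IFN-β (30000 IU) daily. At disease peak, GFP- donor cells that were CD45+CD11b+Ly6ChiLy6G- were sorted from the CNS, giving 3 WT and 3 Ifnar1-/- libraries. Both groups were exposed to the same hosts, disease and IFN-β, and they differ in IFNAR1, a subunit of the receptor for type I interferons that Ifnar1-/- donor cells lack by genotype. No untreated group is among the samples. The donor genotype and the CD45 strain of the donor cannot be told apart in this design. The recipients numbered 3, as did the libraries of each group, but the labels do not tie libraries to mice, so p-values measure the spread between these libraries, which may be technical. Library totals were 7321380, 4531782 and 4946747 expected counts in WT and 6916101, 5811323 and 5442568 in Ifnar1-/-.

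The targeted gene was read first. In normalized CPM (counts over the library size after TMM adjustment, scaled as CPM), Ifnar1 was at 153, 126 and 111 in WT and at 110, 102 and 109 in Ifnar1-/-. The lowest WT library lay just above the highest Ifnar1-/- library, and the difference did not pass the test (log2 fold change 0.28, SE 0.15, adjusted p = 0.36, edgeR). The sources used here do not give which exons the allele lacks, and a count over the whole gene does not separate them, so the level of Ifnar1 RNA does not check the genotype. Groups are therefore named as labelled. Of 10 interferon-stimulated genes, 9 were called higher in WT and 0 lower (edgeR), beside 1.67% of all tested genes called higher. Their list was chosen with earlier results of these data known, so the count is a description and not an independent check of the labels.

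lincRNAs are transcribed by RNA polymerase II from loci outside protein-coding genes and are often spliced and polyadenylated, but have no long open reading frame. Some act in the nucleus as scaffolds, such as Neat1 in paraspeckles, Malat1 in nuclear speckles and Xist on the inactive X chromosome, and others host small RNAs in their introns. In myeloid cells, type I interferon signals through IFNAR1 and IFNAR2 to STAT proteins and IRF9, which bind the interferon-stimulated response element (ISRE) in target promoters.

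Gm36161 and Gm42047 were higher in WT than in Ifnar1-/- monocytes, and AY036118 was lower. Those were the only genes called among the 82 lincRNAs at the threshold in both groups, where a gene was called if edgeR's quasi-likelihood test gave an adjusted p no higher than 0.05 and the groups differed 1.5-fold or more. The share called was 3.66% (2 higher, 1 lower), beside 2.13% of the 11254 genes tested in the same fit (1.67% higher and 0.462% lower in WT). At the share of all genes, 82 genes would give 1.75 calls, so the count of lincRNAs was near the background. In normalized CPM, all libraries of one group lay above those of the other for 13 of the 82 (15.9%), 5 with WT higher and 8 with WT lower, beside 23.4% of all tested genes (11.1% higher and 12.2% lower). The median log2 fold change of WT over Ifnar1-/- was -0.07 over the 82 lincRNAs, with quartiles at -0.28 and 0.20, and -0.01 over all tested genes. The median standard error was 0.30 for these lincRNAs and 0.20 for the 10055 protein-coding genes tested.

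Gm36161 is shown first by its sequence because the lincRNA is an inverted copy of a coding gene and its start holds letters of the ISRE. It has 4 exons at chr13:120010390-120018931 on the plus strand (GRCm38), and Gm21188, annotated as protein-coding, lies at chr13:120034605-120052194 on the minus strand. Of all 31-base words in the Gm36161 transcript, 76.0% also occur in transcripts of Gm21188 and 81.6% in those of any other gene. A stretch of 160 bases from the last exon, in which 155 bases are identical, shows how few positions separate the copies, and capitals mark the bases that differ.
Gm36161, chr13:120018123-120018282, plus strand: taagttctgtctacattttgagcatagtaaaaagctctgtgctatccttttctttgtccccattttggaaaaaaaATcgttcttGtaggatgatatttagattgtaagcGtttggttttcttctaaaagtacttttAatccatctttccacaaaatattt
Gm21188, chr13:120044268-120044427, minus strand: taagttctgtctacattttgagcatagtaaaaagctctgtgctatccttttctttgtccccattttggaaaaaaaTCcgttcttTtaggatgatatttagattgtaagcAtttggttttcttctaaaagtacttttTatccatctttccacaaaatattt

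The promoter window of Gm36161 in RefSeq (250 bases before to 50 after the RefSeq start, GRCm38.p6) has 1 match to the ISRE letters TTTCNNTTTC, read on either strand. The match, in capitals, is at bases 41 to 50 after that start and overlaps the first bases of the GENCODE transcript.
Gm36161 promoter, chr13:120010092-120010391, plus strand: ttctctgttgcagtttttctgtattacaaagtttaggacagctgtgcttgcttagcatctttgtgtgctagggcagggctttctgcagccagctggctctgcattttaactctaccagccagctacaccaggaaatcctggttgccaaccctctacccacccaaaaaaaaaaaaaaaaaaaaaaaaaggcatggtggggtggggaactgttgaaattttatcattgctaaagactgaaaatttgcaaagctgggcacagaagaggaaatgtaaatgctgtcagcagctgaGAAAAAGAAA

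In normalized CPM, Gm36161 was at 110, 98.2 and 95.8 in the WT libraries and at 41.1, 32.9 and 45.8 in the Ifnar1-/- libraries. Every WT library was above every Ifnar1-/- library. The mean was 101 ± 7.78 CPM in WT and 39.9 ± 6.54 in Ifnar1-/- (SD, n = 3), a 2.54-fold difference (log2 fold change 1.35, SE 0.16, adjusted p = 0.00103, edgeR). Its inverted copy Gm21188 was at 116 ± 12.4 CPM in WT and 50.05 ± 5.68 in Ifnar1-/- (SD, n = 3), a log2 difference of 1.21 with an SE of 0.15 (edgeR adjusted p = 0.0015). Gm36161 took 84.6, 89.3 and 89.0 counts for each 100 of Gm21188 in WT and 78.1, 75.6 and 84.5 in Ifnar1-/-. The copies share most of their sequence, so their reads are uncertain between them and the calls on Gm36161 and Gm21188 are not independent of each other.

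Gm42047 was at 21.1, 26.1 and 30.0 CPM in WT and at 5.65, 7.63 and 12.7 CPM in Ifnar1-/-. The lowest WT library lay above the highest Ifnar1-/- library. The difference was 2.99-fold (log2 fold change 1.58, SE 0.28, adjusted p = 0.0153, edgeR), and the adjusted p was above 0.05 when WT replicate 3, Ifnar1-/- replicate 1 or Ifnar1-/- replicate 2 was left out, at most 0.0658. Its 4 exons at chr8:121833247-121841178 on the plus strand lie inside the span of Gm20388, a gene annotated as protein-coding on the same strand, and share no exonic base with it. Gm20388 was listed at 0 counts in all 6 libraries. Of the 31-base words of Gm42047, 72.3% also occur in other genes, the largest part (38.2%) in Gm48362, a lincRNA whose level was at or below 0.339 CPM in each library.

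Gm38399 met the threshold in WT alone and had the largest fold change of the 103 lincRNAs tested. It was at 16.4, 5.10 and 8.49 CPM in WT and at 1.53, 1.36 and 1.29 CPM in Ifnar1-/-, with 10, 8 and 7 counts in the Ifnar1-/- libraries. The WT libraries spread over more than the gap between the lowest of them and the Ifnar1-/- libraries, and the fitted log2 fold change was 2.85 (SE 0.46). This gene lies at chr1:135606447-135688105 on the minus strand and shares 134 exonic bases on that strand with Nav1, a neuron navigator family gene that binds microtubules. Nav1 was at 87.5, 28.7 and 38.1 CPM in WT and at 7.79, 4.58 and 6.62 CPM in Ifnar1-/- (log2 fold change 3.03, SE 0.41, adjusted p = 0.0028, edgeR). Counts of Gm38399 per 100 of Nav1 were 18.7, 17.8 and 22.3 in WT and 19.6, 29.6 and 19.4 in Ifnar1-/-. The Ifnar1-/- ratios rest on the 10, 8 and 7 counts given above and are a description.

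**Figure D1:**
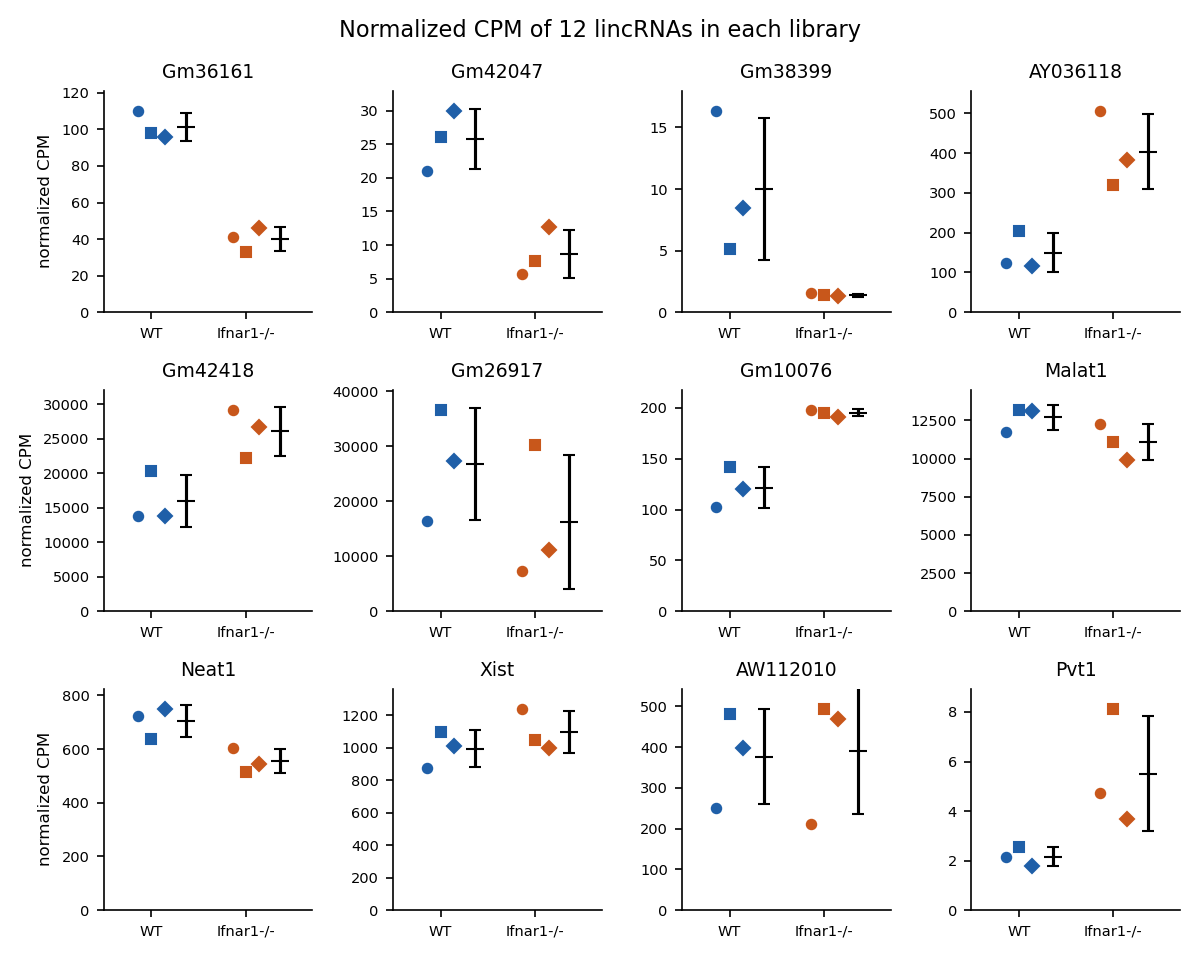
Normalized CPM (vertical axes, each starting at 0) of 12 lincRNAs in the 3 WT libraries (blue) and the 3 Ifnar1-/- libraries (orange). The circle, square and diamond are replicates 1, 2 and 3, and the black bar is the mean ± SD. The groups do not overlap for Gm36161, Gm42047, Gm38399, AY036118, Gm42418, Gm10076, Neat1 and Pvt1, whereas Gm26917, Malat1, Xist and AW112010 overlap. The 12 were picked for display. Gm38399 met the count threshold in WT alone and Pvt1 in Ifnar1-/- alone, and both are shown as a description. Among the 82 lincRNAs at the threshold in both groups, 15.9% did not overlap, beside 23.4% of all tested genes.

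A handful of genes held most of the lincRNA counts. Expressed lincRNAs took 4.47%, 7.75% and 5.99% of all expected counts in the WT libraries and 5.10%, 6.91% and 5.27% in the Ifnar1-/- libraries (Wilson 95% intervals reach at most 0.0246 percentage points to either side and cover counting error alone). Gm42418, Gm26917 and Malat1 together made up between 89.9% and 94.1% of those counts in each library. Without them the other 101 lincRNAs took 0.446% ± 0.0125 of counts in WT and 0.476% ± 0.0121 in Ifnar1-/- (SD, n = 3). With AY036118 and Rmrp, described below, also left out, the shares were 0.359% ± 0.0443 in WT and 0.353% ± 0.0089 in Ifnar1-/- (SD, n = 3).

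**Figure D2:**
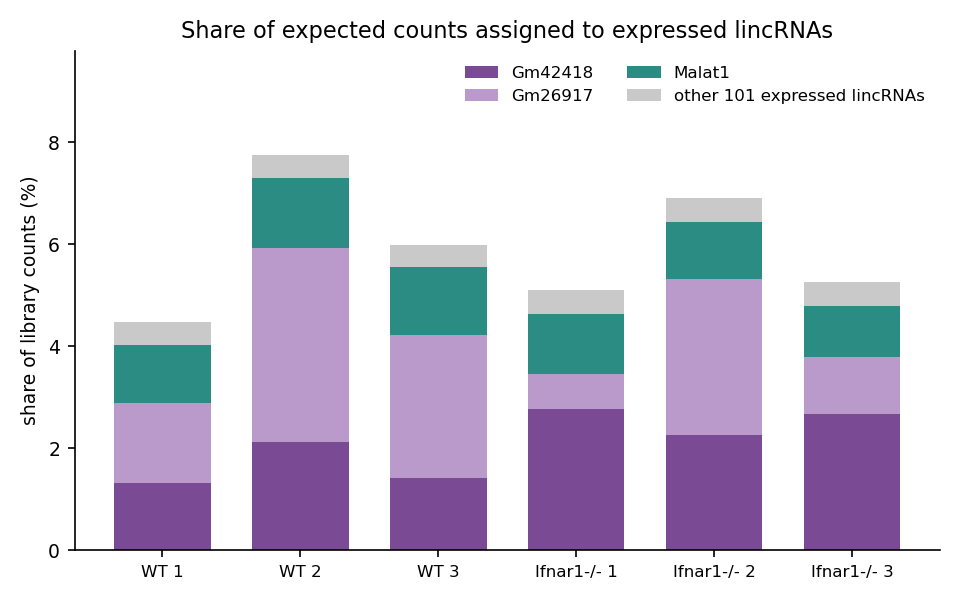
Percent of each library's expected counts (vertical axis) assigned to Gm42418, Gm26917, Malat1 and the other 101 expressed lincRNAs, as stacked bars for 3 WT and 3 Ifnar1-/- libraries. Gm26917 ranged from 0.698% to 3.81% of counts and Gm42418 from 1.32% to 2.77%, while the grey part stayed between 0.432% and 0.485%.

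A locus on chromosome 17 annotated with ribosomal RNA (rRNA) sequence, called the rDNA locus here for short, gave 3 of the most abundant members. Gm42418 (chr17:39846958-39848788, plus strand) carries in RefSeq the name Rn18s-rs5, an 18S ribosomal RNA pseudogene, Gm26917 (chr17:39843013-39846341, plus strand) lies just before it, and AY036118 (chr17:39847113-39848035, minus strand) lies inside Gm42418 on the other strand. An annotated rRNA gene, CT010467.1, covers the same interval on the minus strand and holds every 31-base word of AY036118. Reads of AY036118, Gm42418 and CT010467.1 are therefore uncertain between them.

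AY036118 was at 125, 205 and 117 CPM in WT and at 507, 320 and 384 CPM in Ifnar1-/-. No WT library reached the lowest Ifnar1-/- library. The mean was 149 ± 48.9 CPM in WT and 404 ± 94.8 in Ifnar1-/- (SD, n = 3), 2.71-fold higher in Ifnar1-/- (log2 fold change of WT over Ifnar1-/- -1.44, SE 0.25, adjusted p = 0.0125, edgeR), and the adjusted p was above 0.05 when WT replicate 3 or Ifnar1-/- replicate 1 was left out, at most 0.0662. Gm42418 was at 13751, 20385 and 13825 CPM in WT and at 29236, 22224 and 26757 CPM in Ifnar1-/-. Its groups did not overlap either, but the difference did not pass the test (log2 fold change -0.71, SE 0.25, adjusted p = 0.178, edgeR). DESeq2 called Gm42418 lower in WT (adjusted p = 0.0138). AY036118 had 0.908, 1.01 and 0.845 counts for each 100 of Gm42418 in WT and 1.73, 1.44 and 1.43 in Ifnar1-/-. CT010467.1 was at -0.45 on the log2 scale (SE 0.16, edgeR adjusted p = 0.188).

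Gm26917 varied widely within both groups. It was at 16374, 36659 and 27359 CPM in WT and at 7369, 30200 and 11199 CPM in Ifnar1-/- (log2 fold change 0.72, SE 0.48, adjusted p = 0.472, edgeR). The log2 fold change was 1.54 without Ifnar1-/- replicate 2 and 0.38 without Ifnar1-/- replicate 1. Replicate 2 was the highest library of each group. Per 100 counts of Gm42418 it had 119, 180 and 198 in WT and 25.2, 136 and 41.9 in Ifnar1-/-, so the ratio of the neighbouring rDNA genes was not constant. The mitochondrially encoded genes took 12.97%, 14.7% and 18.4% of counts in WT and 23.6%, 15.9% and 20.4% in Ifnar1-/-, and whether that share has a part in the differences at the rDNA locus was not tested.

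Levels between genes are compared in the deposited TPM, which is per length, as a mean ± SD over all 6 libraries. Gm42418 was highest at 11755 ± 3636 TPM. Next were Rmrp at 6948 ± 2012 and Gm26917 at 6578 ± 4137. Rmrp was above Gm42418 in WT replicate 1 and Gm26917 was above it in WT replicate 3. Gm26917 was above Rmrp in replicates 2 and 3 of WT and in replicate 2 of Ifnar1-/-, so their order is not the same in every library. Malat1 followed at 2670 ± 679, then Gm10076 at 741 ± 201, AW112010 at 623 ± 253 and AY036118 at 342 ± 181. Neat1 at 90.6 ± 18.3, AU020206 at 67.2 ± 18.0 and Lncpint at 64.0 ± 16.2 completed the 10 highest. Neighbours in this order overlapped within 1 SD, except that Malat1 lay above Gm10076 and AY036118 above Neat1. The median member was at 3.38 TPM, whereas the median protein-coding gene in the test was at 11.9 TPM. Only 24 members reached 10 TPM and 67 were under 5 TPM.

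Rmrp, the RNA of the mitochondrial RNA processing endoribonuclease that acts in rRNA maturation, is a polymerase III transcript despite its class in the annotation. Its 281 exonic bases make its TPM sensitive to the effective length. Levels were 1347, 420 and 422 CPM in WT and 893, 654 and 990 in Ifnar1-/-, so WT replicate 1 alone was above the Ifnar1-/- libraries (log2 fold change -0.21, SE 0.40, adjusted p = 0.829, edgeR). Without that library the log2 fold change was -0.999 and the gene was called lower in WT.

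**Figure D3:**
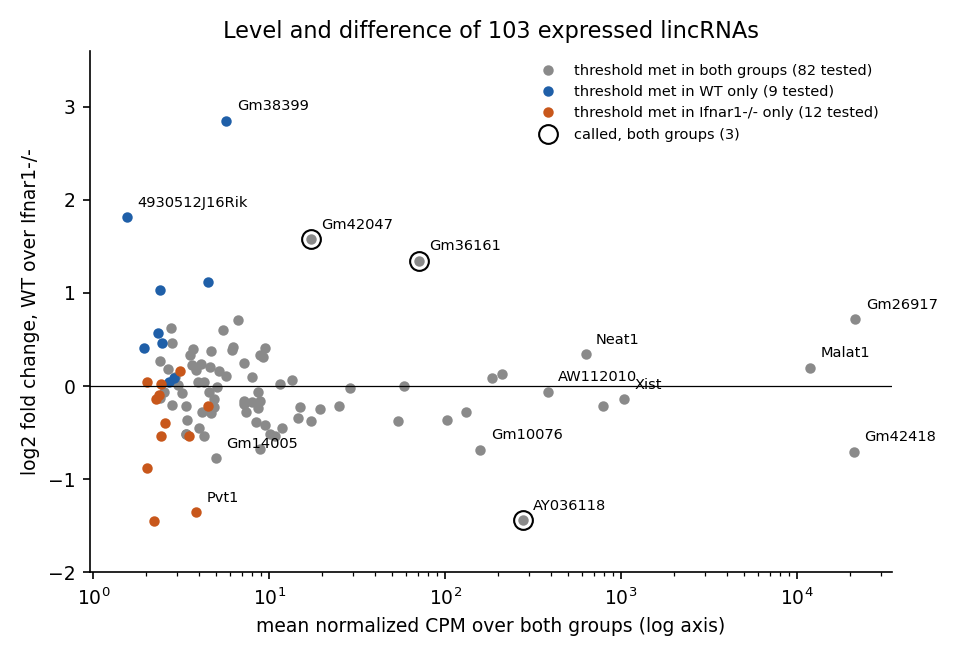
Mean normalized CPM over the groups (horizontal log axis) against the log2 fold change of WT over Ifnar1-/- (vertical axis) for the 103 expressed lincRNAs tested. Grey points met the count threshold in both groups, blue points in WT alone and orange points in Ifnar1-/- alone, and rings mark the 3 called genes of the grey class. Blue and orange points lie toward the low end of the horizontal axis, among or to the left of the grey points there, and Gm42418, Gm26917 and Malat1 lie furthest right.

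The lncRNAs of nuclear architecture were abundant and none was called. Malat1, which associates with nuclear speckles, was at 11750, 13207 and 13136 CPM in WT and at 12236, 11068 and 9900 CPM in Ifnar1-/-, and the groups overlapped (log2 fold change 0.20, SE 0.20, adjusted p = 0.653, edgeR). Neat1, the scaffold of paraspeckles, was at 724, 636 and 750 CPM in WT and at 605, 516 and 546 CPM in Ifnar1-/-. All WT libraries of Neat1 were above the Ifnar1-/- libraries by a small margin, a 1.27-fold difference that did not pass the test (log2 fold change 0.34, SE 0.15, adjusted p = 0.275, edgeR). 2900097C17Rik (Norad, which binds Pumilio proteins) had a log2 fold change of 0.13 and Xist one of -0.14. Of 7 tested genes on the list of nuclear architecture lncRNAs, of which 4 are members, 0 were called by edgeR, DESeq2 or limma-voom and 2 had an unadjusted p under 0.05 (edgeR; 17.8% of all tested genes did), and their median log2 fold change was -0.13. The proteins that work with these RNAs gave a like count. Among 15 paraspeckle and speckle proteins, 11 nuclear RNA decay factors and 8 partners of Xist, 0 were called by edgeR, with median log2 fold changes of -0.19, -0.05 and 0.10. The unadjusted edgeR p was under 0.05 for 3, 2 and 2 of them, beside the same 17.8% of all genes under that unadjusted p. DESeq2 called 0, 1 and 1 of them, and limma-voom 0 in each. Over all genes, DESeq2 without a count filter called 314 higher and 105 lower in WT, and no share is given for it. limma-voom called 178 higher and 43 lower of 11254.

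Xist, which coats the inactive X chromosome in female cells, was at 873, 1097 and 1010 CPM in WT and at 1240, 1048 and 996 CPM in Ifnar1-/-, and the Y-linked genes Ddx3y, Eif2s3y, Kdm5d and Uty were listed at 0 counts in all 6 libraries. Ftx, a neighbour of Xist in the X inactivation centre, was at 4.55, 4.25 and 3.75 CPM in WT and at 6.57, 5.08 and 3.68 CPM in Ifnar1-/- (log2 fold change -0.29, adjusted p = 0.665, edgeR). The imprinted Meg3 and H19 were not expressed by the rule.

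lncRNAs linked to immune cells were described next, and of the 4 on that list at the threshold in both groups 0 were called by edgeR, DESeq2 or limma-voom, with Gm14005 alone at an unadjusted edgeR p under 0.05 (17.8% of all tested genes). AW112010, induced in activated lymphoid and myeloid cells, was the most abundant of them, at 250, 480 and 398 CPM in WT and at 212, 494 and 468 CPM in Ifnar1-/-. Replicate 1 was the lowest library of each group, and the difference was -0.06 on the log2 scale (SE 0.32, edgeR adjusted p = 0.95). Gm14005, which spans the Morrbid locus near the proapoptotic gene Bcl2l11, was at 3.98, 4.25 and 2.76 CPM in WT and at 7.02, 5.93 and 5.88 CPM in Ifnar1-/-. The groups did not overlap for Gm14005, yet it did not pass the test (log2 fold change -0.77, SE 0.28, adjusted p = 0.192, edgeR), and Bcl2l11 was at 0.23 (SE 0.17). Ptgs2os2, also known as lincRNA-Cox2, had 11 to 21 counts per library and a log2 fold change of 0.19 (SE 0.39). Lncpint, a p53-linked lncRNA, was at 0.00 (SE 0.20), and Gm20186, which met the threshold in WT alone, had a fitted value of 0.09. Pvt1, neighbour of Myc, met the threshold in Ifnar1-/- alone, with 31, 48 and 20.4 counts there and 15, 12 and 9 in WT (fitted log2 fold change -1.35), while Myc was at -0.14 (SE 0.28).

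Small RNA hosts among the members had log2 fold changes that did not pass the test, and those of Snhg12, Epb41l4aos and Mir17hg changed sign when 1 library was left out. Snhg6, Snhg12, Snhg20 and Epb41l4aos, which host small nucleolar RNAs, had log2 fold changes of -0.23, -0.07, -0.45 and -0.07 with SEs from 0.27 to 0.38. Over the whole list of snoRNA hosts, 12 were tested, 1 was called lower in WT and 12 had a negative value, with a median of -0.25, beside 0.462% called lower and a median of -0.01 over all tested genes. Only 1 of the 12 had an unadjusted edgeR p under 0.05, beside 17.8% of all tested genes, so the signs are a description. The called gene was Snhg1, a processed transcript in the annotation and thus not a member, at 18.4, 23.0 and 18.2 CPM in WT and at 39.6, 30.7 and 35.5 CPM in Ifnar1-/- (log2 fold change -0.83, SE 0.17, adjusted p = 0.0332, edgeR). Mir17hg, host of the miR-17-92 cluster, was the one member on the list of miRNA hosts and was at -0.06 (SE 0.35). Of 4 tested miRNA hosts, 0 were called by edgeR, DESeq2 or limma-voom, beside 2.13% of all tested genes called by edgeR. The unadjusted edgeR p was under 0.05 for 0 of the 4, beside 17.8% of all tested genes.

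Gm10076 came closest to an edgeR call among the remaining genes. It is a copy of Rpl41, a ribosomal protein gene with a very short coding sequence, and 82.2% of its 31-base words occur in Rpl41. The coding sequence of Rpl41, without the stop codon, is found whole in Gm10076 (75 of 75 bases identical), which is why it is printed here.
Rpl41 coding sequence, also in Gm10076: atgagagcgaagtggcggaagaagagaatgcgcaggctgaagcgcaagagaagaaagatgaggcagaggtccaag
Gm10076 was at 103, 142 and 120 CPM in WT and at 198, 196 and 191 CPM in Ifnar1-/-. The Ifnar1-/- libraries lay close together and above all WT libraries (log2 fold change -0.68, SE 0.15, adjusted p = 0.0513, edgeR). DESeq2 (adjusted p = 0.0035) and limma-voom called Gm10076 lower in WT. Rpl41 was at -0.55 (SE 0.17, adjusted p = 0.131, edgeR). Per 100 counts of Rpl41, Gm10076 had 40.2, 40.0 and 40.0 in WT and 41.5, 49.3 and 41.9 in Ifnar1-/-, and reads of Gm10076 are uncertain between the copies. Gm37233, one of the 5 largest uncalled differences among the 82, was at 8.25, 8.50 and 7.90 CPM in WT and at 4.89, 6.10 and 4.05 CPM in Ifnar1-/- (log2 fold change 0.71, SE 0.25, adjusted p = 0.175, edgeR).

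Sequence shared with other entries, as copies or as overlapping or antisense genes, was counted for each member on either strand. Of the 104, 14 shared over 50% of their 31-base words with all other genes combined and 53 shared under 5%, with a median of 4.0%. The 3 genes called among the 82 at the threshold in both groups (3.66%, beside 2.13% of all tested genes) were among the 14. Gm38399, at the threshold in WT alone, shared 6.44% of its words. Whether shared sequence has a part in the calls was not tested. Others of the 14 included Rmrp, whose words recur in a second, ribozyme entry listed at 0 counts. Gm26778, also of the 14, is antisense to Kctd12 over 99.3% of its words. Gm26778 had 2.98, 3.08 and 4.53 counts per 100 of Kctd12 in WT and 3.21, 2.98 and 2.49 in Ifnar1-/-. Whether counting used strand is not given in the sources used here, so reads of an antisense pair cannot be told apart.

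Overlaps with coding genes on the same strand were found for 11 members. For 4 of them exons overlapped, Gm38399 with Nav1 (134 bases), Gm42743 with Hist2h2bb (226 bases), Gm20707 with Zfp984 (282 bases) and AC160336.1 with Gm5624 (2444 bases). Gm42743 had a log2 fold change of 0.23 (SE 0.50) beside -0.43 for Hist2h2bb, and Gm20707 one of 0.11 beside -0.19 for Zfp984. The other 7 overlapped the span of a coding gene with no shared exonic base. Those were Gdap10 with Nampt, Gm26624 with the zinc finger genes Zfp991, Zfp988 and Zfp978, Gm26514 with Slc35b3, Gm26890 with Clasrp, Gm26601 with Dip2c, and Gm4316 and Gm42047 with Gm20388. Among them Gm42047 was called, and the log2 fold changes of the other 6 ran from -0.51 (Gm26514) to 0.47 (Gm26890). Gdap10, the most abundant of the 11 at 35.7 TPM, was at 0.09 while Nampt was at -0.26. On the opposite strand 9 members overlapped a coding gene, among them AC160336.1, which is also one of the 11, and 14 started divergently from one, and 85 of 104 overlapped none on either strand.

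Nearest coding genes were read beside the 55 tested lincRNAs at the threshold in both groups whose nearest coding gene was also tested. Of those neighbours 1 was called, Nlrc5 (1.82%, beside 2.16% of all protein-coding genes tested). Beside lincRNAs that met the threshold in one group alone, Nav1, Zcchc2 and Clec2d were called and are given as a description. With these lincRNAs included there were 72 pairs, and 4 of the neighbours were called. Nav1 is given above. Zcchc2 was at 99.7 ± 16.7 CPM in WT and 49.7 ± 4.49 in Ifnar1-/- (SD, n = 3), a log2 difference of 1.01 (SE 0.16, edgeR adjusted p = 0.0083), and Gm7160 starts divergently 124 bases from it. Gm7160 met the threshold in WT alone, with 45, 27 and 32 counts there and 25, 8 and 18 in Ifnar1-/- (fitted log2 fold change 1.11). Nlrc5, the transactivator of MHC class I genes, differed by 0.83 on the log2 scale (SE 0.18, edgeR adjusted p = 0.0466). 9330175E14Rik overlaps the Nlrc5 start on the other strand, and was at 8.25, 13.2 and 11.3 CPM in WT and at 7.64, 8.98 and 7.72 CPM in Ifnar1-/-, which overlapped (log2 fold change 0.41, SE 0.24, adjusted p = 0.393, edgeR). Clec2d, a ligand of the NK cell receptor family, had a log2 fold change of 1.14 (SE 0.19), and 2310001H17Rik, 21878 bases away, had a fitted value of 0.17 (SE 0.48). Over the 49 pairs with no same-strand overlap whose lincRNA met the threshold in both groups, Spearman's rho of the log2 fold changes was 0.15. This is a correlation across genes from the same libraries, which are not independent replicates.

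**Figure D4:**
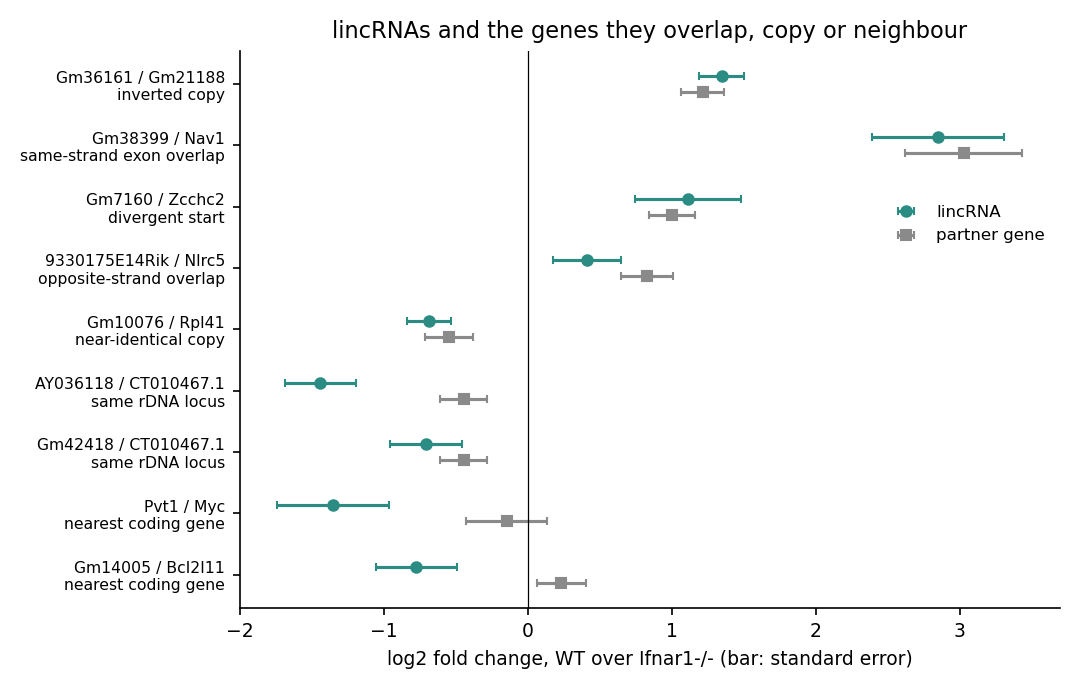
Log2 fold change of WT over Ifnar1-/- (horizontal axis, bars are standard errors) for 9 lincRNAs (circles) and the gene each overlaps, copies or neighbours (squares). Gm36161 and Gm21188, Gm38399 and Nav1, and Gm7160 and Zcchc2 lie to the right of 0, whereas Pvt1 and Gm14005 lie to the left with Myc and Bcl2l11 near 0. Gm38399, Gm7160 and Pvt1 met the count threshold in one group alone and are shown as a description.

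Promoter windows in RefSeq matched 48 of the 104 members. Among their 52 windows of 300 bases, 4 held TTTCNNTTTC on either strand (7.69%), beside 3.44% of all 32851 windows, and 5 held TTCNNNGAA, the letters of the gamma-activated site (9.62%, beside 8.30%). Any overlap of the matches with other motifs was not examined. The ISRE letters stood in the windows of Gm36161, Gm31718, Gm46224 and Ptgs2os2. Gm36161 was called, and the log2 fold changes of Gm31718, Gm46224 and Ptgs2os2 were 0.38 (SE 0.39), -0.17 (SE 0.31) and 0.19 (SE 0.39).

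Members that met the threshold in one group had few counts. The 5 with the largest fitted log2 fold changes were Gm38399 at 2.85, 4930512J16Rik at 1.81, Gm5165 at -1.45, Pvt1 at -1.35 and Gm7160 at 1.11. 4930512J16Rik had 14, 11 and 15 counts in WT and 4, 6 and 2 in Ifnar1-/-, and Gm5165 had 10, 6 and 4 in WT and 17, 22 and 18.8 in Ifnar1-/-. The other 17 were between -0.88 and 1.04, with Gm44053 not tested. Just inside the threshold were Gm44053, 1700096K18Rik and Gm17275, whose smallest count in the Ifnar1-/- group was 10. Just outside it were 1300002E11Rik, Gm26532 and AI463229, for which the higher of the smallest counts of the groups was 9.99, 9 and 9. Between 10 and 12 counts lay 14 lincRNAs, and between 8 and under 10 lay 15, so the number of members depends on the threshold.

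Among the interferon-stimulated genes read for reference, Irf7, a regulator of type I interferon genes, was at 721, 413 and 393 CPM in WT and 25.8, 32.7 and 31.8 CPM in Ifnar1-/-. The median log2 fold change of the 10 was 4.28. Markers of other cells were read in the same libraries. Monocyte genes such as Lyz2, Itgam and Ccr2 were abundant, and of 10 only Ly6c2, which encodes the antigen used in the sort, was called by edgeR (log2 fold change 1.40, SE 0.23, adjusted p = 0.00957, edgeR). Over all tested genes edgeR called 2.13%. DESeq2 called 3 of the 10, beside 314 genes higher and 105 lower. It was run on all genes with any count, not on the genes tested by edgeR, and no share is given for it. limma-voom called 1 of the 10, beside 178 genes higher and 43 lower of the 11254 it tested. The unadjusted edgeR p was under 0.05 for 3 of the 10, beside 17.8% of all tested genes. The 9 T cell markers summed to 55.5, 23.2 and 52.7 CPM in WT and 24.3, 9.49 and 12.9 CPM in Ifnar1-/-, with Cd2 the most abundant. Of 7 tested, 0 were called by edgeR, DESeq2 or limma-voom, but 6 had an unadjusted edgeR p under 0.05, beside 17.8% of all tested genes. All 7 had positive log2 fold changes, with a median of 1.52. The 9 neutrophil markers summed to 336, 762 and 2196 CPM in WT and 977, 851 and 2457 CPM in Ifnar1-/-, highest in replicate 3 of each group, with Ngp the most abundant and Ly6g at or below 0.79 CPM. Of 8 neutrophil markers tested, 0 were called by edgeR, DESeq2 or limma-voom and 0 had an unadjusted edgeR p under 0.05 (17.8% of all tested genes). The 8 microglia markers summed to 258, 329 and 298 CPM in WT and 296, 372 and 376 CPM in Ifnar1-/-. The 8 neural markers summed to 61.5, 45.1 and 51.7 CPM in WT and 46.0, 44.7 and 51.1 CPM in Ifnar1-/-, with Mbp, a myelin gene, the most abundant and Mog and Rbfox3 at 0 in every library. The 6 B cell markers summed to 11.1, 5.95 and 8.09 CPM in WT and 7.33, 3.56 and 9.93 CPM in Ifnar1-/-, with Ighm the most abundant and Pax5 at 0 in every library. The part of these cells in the lincRNA differences was not tested. In sorted bulk samples, fewer cells of a type and less RNA per cell cannot be told apart.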

How the data were processed

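Libraries of 75 bp paired-end reads were mapped to GRCm38. The submitters' processing notes name STAR 2.6.0c and RSEM 1.2.31, and the labels name the SMARTer Stranded Total RNA-Seq Pico v2 kit where the methods name TruSeq Stranded Total RNA. The authors deposited expected counts, which are estimates and not normalized, and TPM, scaled by the authors to gene length and library. Gene types, symbols and positions came from GENCODE M21, which matched 54165 of 54232 identifiers (67 did not). Expected counts were rounded and tested with edgeR 4.0.16 (R 4.3.3, limma 3.58.1, TMM, filterByExpr with a minimum count of 10, Benjamini-Hochberg adjustment) without a block. DESeq2 1.42.0, run on all genes with any count, and limma-voom, run on the genes tested by edgeR, were alternatives. A count of 3 is worth 0.41 to 0.66 CPM at these depths. The fit was tested on simulated data.

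The 31-base words were compared with GENCODE M21 transcripts, and promoter windows came from RefSeq. A divergent start is one on the other strand up to 2000 bases upstream.

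Named members were those called, the 10 highest in TPM, those on the lncRNA lists, the 5 largest uncalled differences in each class, and 3 on each side of the threshold. Members and lists were chosen with earlier results of these data known.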

Additional observations from a re-analysis of the deposited data

How the results depend on the processing

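Most expressed lincRNAs were at low levels, with 67 of 104 under 5 TPM, and a minimum of 20 counts left 65 members. DESeq2, run on all genes with any count, called 314 genes higher and 105 lower in WT. Over all genes tested by edgeR, no filter on low counts gave 610 and 262, and leaving out 1 library gave 110 to 204 and 7 to 41. Among the 82 lincRNAs at the threshold in both groups, leaving out 1 library gave 1 to 2 higher and 0 to 2 lower. DESeq2 called 3 of them lower, and limma-voom, no filter, and a filter of 10 counts in all 6 libraries each called 2 lower, with Gm10076 added in each and Gm42418 by DESeq2. Gm36161 was called in all 15 alternatives (log2 fold change 1.24 to 1.47), Gm42047 in 12 of 15 and AY036118 in 12 of 14, and Gm38399 kept a fitted value of 2.28 to 3.17. The cause of these changes was not tested.

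As a share of coding and lincRNA counts, the members took 7.60% in WT and 7.60% in Ifnar1-/-. As a share of all counts, they took 0.446% in WT and 0.476% in Ifnar1-/- without the 3 most abundant. Leaving out the rDNA-locus lincRNAs and Rmrp, an alternative chosen after seeing the data, gave 1.64% and 1.44% of all counts. Leaving out 1 library gave shares of all counts of 5.23% to 6.87% in WT and 5.19% to 6.09% in Ifnar1-/-, and medians of the log2 fold change of -0.10 to -0.01.

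Values near 0 changed sign in 8 of 31 named lincRNAs. With limma-voom, Lncpint came to -0.0341 and 1700096K18Rik to -0.0275. Leaving out 1 library, the log2 fold changes ran from -0.999 to 0.0903 for Rmrp, -0.34 to 0.18 for AW112010, -0.25 to 0.14 for Lncpint, -0.26 to 0.13 for Snhg12, -0.30 to 0.23 for Epb41l4aos, -0.20 to 0.25 for Mir17hg, -0.19 to 0.30 for Gm20186 and -0.12 to 0.34 for 1700096K18Rik.

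The labels do not tie the replicate numbers to mice, and whether they pair the samples is not settled by the data. Deviations from the group means of same-numbered libraries correlated at 0.0872, 0.0265 and 0.289 across genes, and WT replicate 1 correlated best with Ifnar1-/- replicate 2 (0.101). A block on the replicate number gave 182 genes called higher and 38 lower, the lincRNA calls stayed at 2 higher and 1 lower, their median log2 fold change was -0.06, and Lncpint came to -0.0311.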
